A study of Mus musculus with 6 samples.

Results

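The 37 genes described here encode the lysosomal proton pump and the proteins it serves, out of 32285 genes counted per nucleus. They are 7 subunits of the membrane sector (V0) and 8 subunits of the cytosolic sector (V1) of the vacuolar H+-ATPase, 2 accessory subunits of the pump, 8 lysosomal membrane proteins, and 12 proteins of the lysosomal lumen, mostly hydrolases. They were taken from a list of gene symbols, and all 37 were found in the count matrices. Lysophosphatidic acid (LPA), a blood-borne signaling lipid, was injected into the right lateral ventricle of C57BL/6 S-56 mice at P7 as a model of post-hemorrhagic hydrocephalus, and vehicle mice received the fatty acid-free BSA carrier alone. Brains of 3 LPA and 3 vehicle mice were collected at P15 without olfactory bulbs and cerebellum, and nuclei negative for the neuronal protein NeuN were sorted for 10x Genomics single-nucleus RNA-seq. The labels number 3 replicates per group. The study plotted values of individual mice, so each library was taken as 1 mouse. Both groups share the strain, ages, surgery and sort.

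A lysosome is the acidic organelle in which a cell degrades what it has taken up and what it recycles from its own cytoplasm. The vacuolar H+-ATPase sets its pH. The V1 sector hydrolyzes ATP and thereby turns a rotor that drives protons through the V0 sector into the lumen, where acid hydrolases cleave lipids, sugars and proteins. Microglia and macrophages are the professional phagocytes of the brain and are rich in lysosomes, and a set of lysosomal genes is known to be regulated together by the transcription factor TFEB, which binds the palindrome CACGTG flanked by T or A.

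Nuclei were grouped here by marker genes, because a cell annotation was not used. Of 57443 nuclei, 46816 fell in a named class, and these names mean nuclei that resemble the class in its markers. The other 10627 nuclei (18.5%) stayed unnamed, and 63.0% of them were called doublets. Total UMIs per library were 50737541 to 54715094 in the LPA group and 48852970 to 65688644 in the vehicle group. Any pair of libraries shared 268 to 303 barcodes, at most 3.47% of the smaller library. The LPA mice were 1 male and 2 females by their sex-linked transcripts, and the vehicle mice were 2 males and 1 female. Despite the sort, 14290 nuclei carried neuronal markers. Values below are counts per 1e+06 UMIs summed over a library's nuclei of a type (CPM). They count introns too, so levels of different genes are not compared.

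Promoters of the list are shown first. RefSeq promoters (GRCm38.p6, 250 bases before to 50 after the start) were at hand for 29 of the 37 genes, and those of Atp6v0a2, Atp6v0d2, Atp6v1b2, Atp6v1c1, Atp6v1g1, Atp6v1h, Npc1 and Asah1 are only named. All promoters of a gene were searched, and each gene was counted once. TCACGTG on either strand was in 7 of the 29 genes (24.1%), against 4.29% of 27025 genes with promoters of the same length. By role it was in 3 of 5 V0, 1 of 4 V1, 0 of 2 accessory, 3 of 7 membrane and 0 of 11 lumen protein genes. It was in 28.2% of 39 other lysosomal and pump assembly genes. The shorter CACGTG, which TCACGTG contains, was in the same number of listed genes, 7, and in 8.09% of all genes with such promoters. The 5 promoters below are from 150 bases before to 10 after the start, 5′ to 3′ on the gene's strand, and capitals mark each palindrome with its flanking T or A. They are Atp6v0b (chr4:117887320-117887479, minus strand), Atp6v0d1 (chr8:105566055-105566214, minus), Atp6v1a (chr16:44139250-44139409, minus), Lamp1 (chr8:13159011-13159170, plus) and Mcoln1 (chr8:3500369-3500528, plus).
Atp6v0b: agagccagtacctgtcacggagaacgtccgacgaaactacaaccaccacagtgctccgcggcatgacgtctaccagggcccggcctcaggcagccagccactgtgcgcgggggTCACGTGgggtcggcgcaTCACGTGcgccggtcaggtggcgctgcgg
Atp6v0d1: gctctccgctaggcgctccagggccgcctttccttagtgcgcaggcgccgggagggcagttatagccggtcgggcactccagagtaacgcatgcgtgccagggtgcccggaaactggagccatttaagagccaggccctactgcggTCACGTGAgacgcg
Atp6v1a: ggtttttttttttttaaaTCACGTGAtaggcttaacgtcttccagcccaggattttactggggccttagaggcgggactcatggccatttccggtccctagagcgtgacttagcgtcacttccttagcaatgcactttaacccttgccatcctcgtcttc
Lamp1: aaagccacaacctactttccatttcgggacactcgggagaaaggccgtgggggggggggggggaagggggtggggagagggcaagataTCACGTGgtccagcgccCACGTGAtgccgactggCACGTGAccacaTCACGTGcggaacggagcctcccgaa
Mcoln1: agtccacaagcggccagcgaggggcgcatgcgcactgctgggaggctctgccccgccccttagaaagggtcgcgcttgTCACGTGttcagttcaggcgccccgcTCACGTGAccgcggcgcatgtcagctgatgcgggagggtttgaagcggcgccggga
Lamp1 held 4 copies within this stretch, Atp6v0b and Mcoln1 held 2 copies each, and Atp6v0d1 and Atp6v1a held 1. The 5 printed are the holders that were higher in activated than in homeostatic microglia in every LPA library (below). Atp6v0e and Cln3, the other holders, were not higher in every library and are not printed. These are matches of letters and say nothing of binding.

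In vehicle brains the list was highest mostly in the immune class. By mean CPM, 14 of the 37 genes were highest in homeostatic microglia and 13 in macrophages, of the 12 types compared, as were 12% and 13% of all 20389 genes with at least 20 UMIs in these types. Of the 37 genes, 7 were highest in either type without overlapping between libraries with the type next in order, against 5.03% of all genes. That share is 1025 genes, out of 2439 highest in homeostatic microglia and 2642 highest in macrophages. The 6 highest in macrophages were Atp6v0a1, the a1 subunit of the proton channel (835 ± 70.2 CPM, SD, n = 3, against 444 ± 60.2 in homeostatic microglia), Atp6v1h, Lamp1, Lamp2, Hexa and Asah1. Man2b1, the lysosomal alpha-mannosidase, was the 1 gene highest in homeostatic microglia without such overlap, at 329 ± 28.2 CPM against 189 ± 102 in macrophages.

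Some genes of the list lay outside the immune class. Atp6v0a2, an a subunit better known from the Golgi than from lysosomes, was at 448 ± 31.4 CPM in committed oligodendrocytes of vehicle brains, above 191 ± 21.5 in homeostatic microglia and 30.2 in macrophages. Astrocytes were highest for Atp6v0e, a small membrane subunit (101 ± 2.95 CPM), and for the tetraspanin Cd63 (151 ± 23.4 CPM). Endothelial cells were highest for Atp6v1f, Mcoln1 and Lipa, choroid plexus cells for Atp6v1d and Atp6v1e1, and neurons for Atp6v0c, each overlapping with the next type. Atp6v0d2 was at most 0.747 CPM in any of these 12 types. When activated microglia of the LPA brains were set beside them, 28 of the 37 genes were highest there, against 8.1% of all genes.

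**Figure D1:**
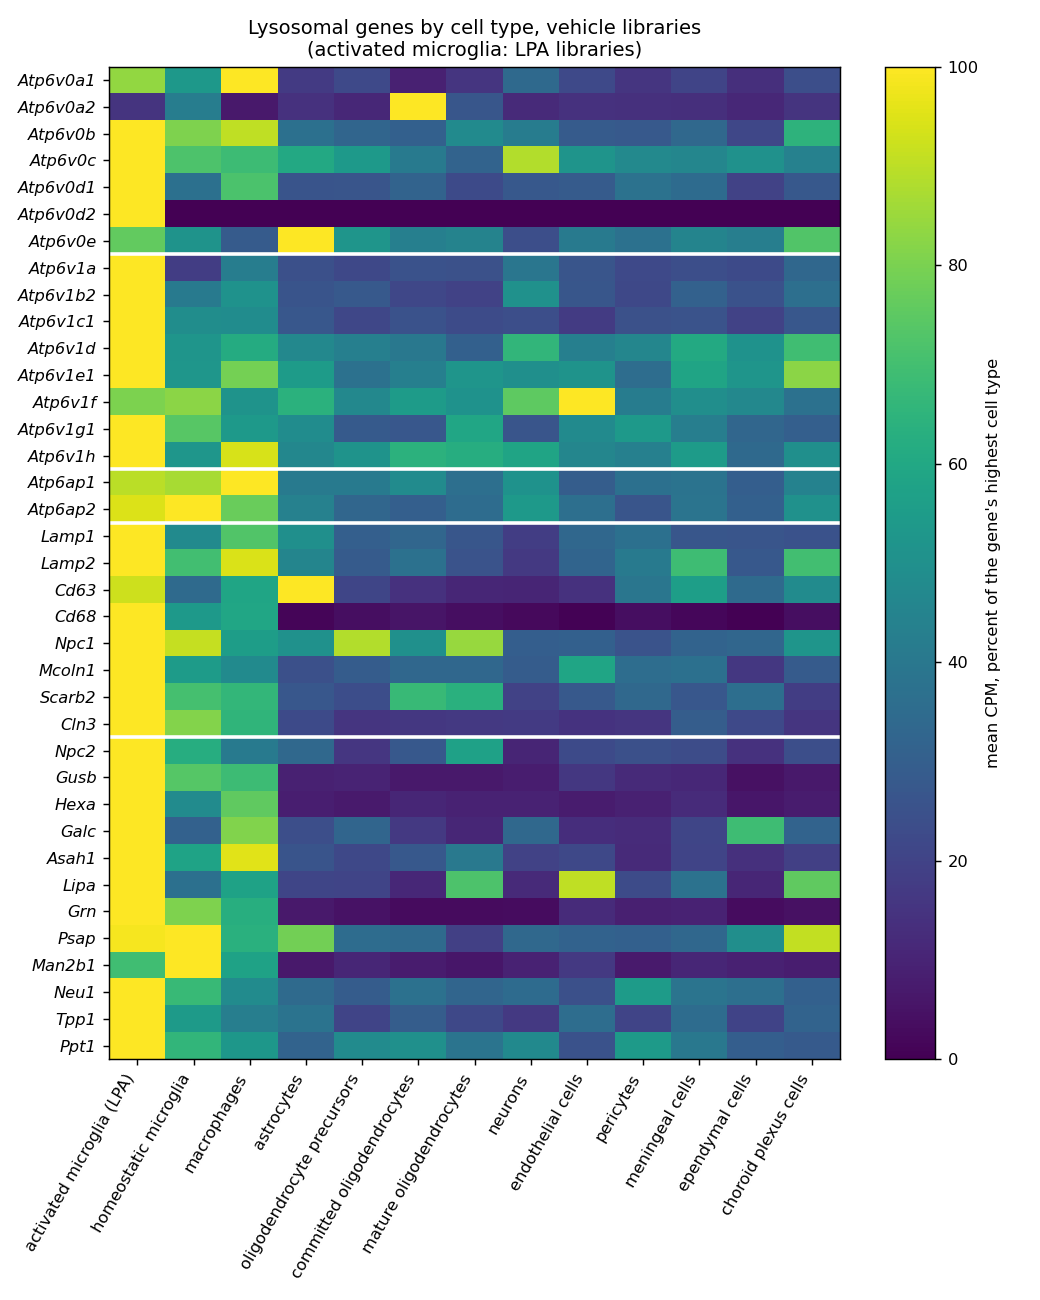
Heatmap of the 37 genes (rows) in 12 cell types of vehicle libraries and in activated microglia of LPA libraries (columns). Color gives the mean CPM of 3 libraries as a percent of the gene's highest column, and 28 genes have their highest column in activated microglia.

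Immune nuclei were next compared between LPA and vehicle brains, 1459 against 662 nuclei. Of the 37 genes, 5 rose and none fell, by edgeR's quasi-likelihood test. A gene counts as called here and below if it passed 0.05 after adjustment and its log2 fold change reached 0.25 in either direction. Where a called gene, or one picked by its p, did not overlap between groups, this describes the libraries that picked it. It adds no support to a call. Across all 9672 genes tested, 6.14% were called and 3.95% were called higher in LPA. The log2 fold change was above 0 for 32 of the 37 genes, against 49.2% of all genes, and its median was 0.40 against -0.01 over all genes. At an unadjusted p under 0.05 there were 19 genes of the list, against 17.0% of all genes, and DESeq2 called 3. The genes that rose were 4 pump subunits, Atp6v0d2 and Atp6v0d1 of V0 and Atp6v1a and Atp6v1b2 of V1, and the galactosylceramidase Galc, which degrades a myelin lipid. No accessory subunit and none of the 8 membrane proteins were called, although all 8 had a log2 fold change above 0.

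Atp6v0d2, a d subunit of V0 used by osteoclasts and some macrophages, lies on chromosome 4 (GRCm38, 19876841 to 19922605, minus strand). In immune nuclei it had 99, 191 and 133 UMIs in LPA libraries 1 to 3 and 0, 0 and 16 in the vehicle libraries. All 16 UMIs of vehicle library 3 came from 1 nucleus of 4929 UMIs, which Scrublet called a doublet. The fitted log2 fold change was 3.16 ± 0.49 (SE; edgeR adjusted p = 7.4e-05), and DESeq2 did not call it (log2 fold change 2.42, adjusted p = 0.785). Against vehicle libraries 1 and 2, where no UMI was seen among 837314, the LPA mean of 142 CPM was at least 39.6-fold higher, taking 3 counts over both libraries as the floor. The fitted value was 9.76 without vehicle 3 and 1.95 without vehicle 2, and it was called both times. Such values of a gene near 0 depend on the prior count of the fit and are no measure of size.

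Atp6v1a, the catalytic A subunit that binds ATP, was at 131, 174 and 165 CPM in the LPA libraries and at 51.5, 81.1 and 62.9 CPM in the vehicle libraries. Every LPA library was above every vehicle library. The log2 fold change was 1.18 ± 0.19 (edgeR adjusted p = 0.000137), between 1.07 and 1.51 under all 17 alternatives, each of which kept the call.

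Atp6v0d1, the ubiquitous counterpart of Atp6v0d2, was at 153, 142 and 176 CPM against 98.7, 77.8 and 99.6 CPM, without overlap between the groups (log2 fold change 0.86 ± 0.18, edgeR adjusted p = 0.00181). Atp6v1b2, the B subunit that alternates with A in the catalytic ring, was at 186, 183 and 243 CPM against 163, 116 and 136 CPM, again without overlap (0.64 ± 0.16, edgeR adjusted p = 0.0137). Galc was at 83.3, 80.8 and 94.9 CPM against 64.3, 51.3 and 26.2 CPM, the last from 5 UMIs (0.82 ± 0.24, edgeR adjusted p = 0.0352). Without vehicle 2 the edgeR call was lost for Atp6v0d1 (0.70, adjusted p = 0.104), Atp6v1b2 (0.47, adjusted p = 0.306) and Galc (adjusted p = 0.166). Without LPA 3 it was lost for Atp6v1b2 (0.49, adjusted p = 0.118) and Galc (adjusted p = 0.12), and for Galc also without LPA 1 (adjusted p = 0.0523) and vehicle 3 (adjusted p = 0.134).

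The next genes in order of p were Hexa, an alpha subunit of beta-hexosaminidase (log2 fold change 0.46, edgeR adjusted p = 0.0512), and Atp6v1c1, a stalk subunit of V1 (0.61, adjusted p = 0.0521). Both missed the threshold. The immune class held different mixtures in the groups. Activated microglia made up 640 of its LPA nuclei and 4 of its vehicle nuclei. Homeostatic microglia made up 695 and 523, and macrophages 92 and 109. With the macrophages and the unnamed immune nuclei left out, an alternative chosen after seeing the data, 11 of the 36 genes tested were called (background 9.19%). Besides the 5 above these were Hexa, Cd63, Atp6v1h, Atp6v0a1 and Lamp1, which rose, and Atp6v0a2, which fell by 0.73 on the log2 scale. Summed oligodendrocyte markers in the immune class were 1691 to 1959 CPM in LPA and 2222 to 3060 CPM in vehicle libraries, with 4 of their 12 tested genes lower in LPA, and their part in these results was not tested.

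**Figure D2:**
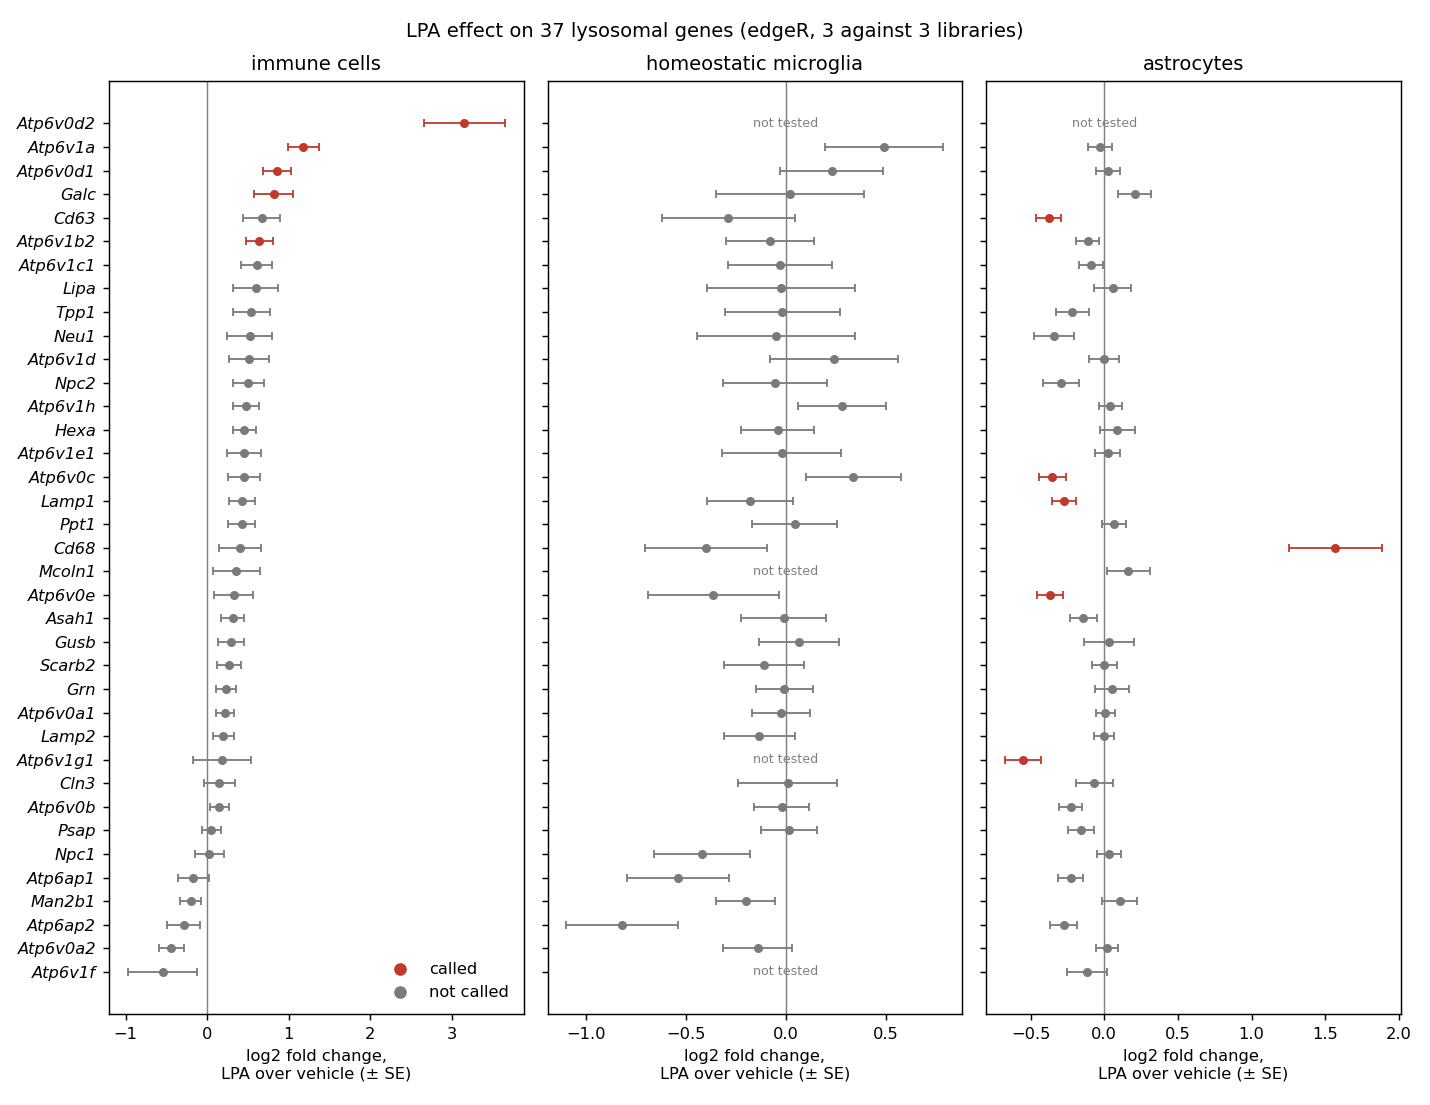
Log2 fold change of LPA over vehicle (x axis, ± SE from edgeR, 3 against 3 libraries) for each of the 37 genes (rows) in immune cells, homeostatic microglia and astrocytes, with called genes in red. In immune cells 32 of the 37 points lie to the right of 0, in homeostatic microglia 10 of 33 and in astrocytes 15 of 36.

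To see where in the immune class the pump genes were expressed, microglia of the LPA brains were compared by state. Activated microglia were recognized by Spp1, Gpnmb, Apoe and similar genes, and homeostatic microglia by P2ry12 and similar genes. A part of the activated nuclei, a cluster led by Ccl3 (below), scored nearly as high for homeostatic markers. None of the 37 genes was used to form the clusters. A state against another state of the same clustering is a description, so no test is given. In LPA libraries 1 to 3 there were 163, 230 and 247 activated nuclei (median UMIs 2206, 2105.5 and 2024) and 217, 306 and 172 homeostatic nuclei (1850, 1676.5 and 1783.5). The vehicle libraries had 0, 2 and 2 activated nuclei.

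Of the 37 genes, 29 were higher by CPM in activated than in homeostatic microglia in every LPA library, a pattern found in 21.8% of all 11236 genes with at least 20 UMIs. Atp6v1d is among the 29 by a near tie in LPA 1 (54.305 against 54.303 CPM). Only Atp6v0a2 was lower in every library (background 22.2%). The ratio was at least 2 and the direction the same in every library for 12 genes (background 6.43%). The median ratio was 1.65 over the 37 genes and 0.983 over all genes. By role, 7 of 8 V1 subunits, 5 of 7 V0 subunits, both accessory subunits, 7 of 8 membrane proteins and 8 of 12 lumen proteins were higher in every library. The 7 genes with TCACGTG in the promoter had a median ratio of 2.19 (1.13 to 3.42), and the 22 matched genes without it 1.59 (0.804 to 3.26). The median log2 fold change of LPA over vehicle in the immune class had the opposite order, 0.36 with TCACGTG and 0.41 without.

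Atp6v0d2 differed most. It was at 263, 374 and 255 CPM in activated microglia (97, 190 and 133 UMIs) and had 1, 1 and 0 UMIs in homeostatic microglia of the same libraries. Pooled over the libraries the ratio was 185, with a 95% counting interval of 51.0 to 1536. Homeostatic microglia of the vehicle libraries had no UMI among 758441, and the level in activated microglia was at least 75.1-fold higher than that floor of 3 counts.

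Atp6v1a followed the same order at a smaller ratio, with 223, 289 and 229.7 CPM in activated and 69.1, 72.7 and 74.7 CPM in homeostatic microglia (3.42 by the means). Atp6v1g1, a small stalk subunit, was at 43.4, 60.9 and 32.5 CPM against 7.40, 15.3 and 9.75 CPM (4.22), from 78 UMIs in all. Atp6v1b2 was at 266, 289 and 316 CPM against 128, 95.7 and 143 CPM (2.37). The states of these 3 V1 subunits did not overlap between libraries.

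Among membrane and lumen proteins the ratio was 3.26 for Cd63 (133, 126 and 159 CPM against 46.9, 32.5 and 48.7 CPM), a tetraspanin of late endosomes. It was 3.18 for Galc (119, 129.8 and 115 CPM against 49.4, 32.5 and 32.5 CPM). Mcoln1, a calcium-permeable channel of the lysosomal membrane, was at 65.2, 57.0 and 53.6 CPM against 27.2, 23.0 and 19.5 CPM (2.53). Cd68, the macrophage scavenger-type glycoprotein, was at 73.3, 114 and 136 CPM against 44.4, 44.0 and 48.7 CPM (2.36), and Lamp1, the main lysosomal membrane glycoprotein, at 179, 289 and 262 CPM against 116, 113 and 104 CPM (2.19). All 5 genes were higher in activated microglia of every library.

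Grn and Npc2 were also higher in every library, at smaller ratios. Grn, which encodes the lysosomal protein progranulin, was at 396, 497 and 394 CPM in activated and 380.1, 348 and 357 CPM in homeostatic microglia (1.19). Npc2, which hands cholesterol on for export, was at 119, 151 and 123 CPM against 114, 67.0 and 68.2 CPM (1.58). The other 8 genes did not follow. Psap, the precursor of the saposins, was at 445, 570.2 and 511 CPM against 595, 542 and 461 CPM (0.955), and its states overlapped. Man2b1 was at 244, 189 and 253 CPM against 291, 318 and 244 CPM (0.804), also overlapping. Atp6v0a2 was at 65.2, 70.8 and 67.0 CPM against 153, 186 and 208 CPM (0.371). Atp6v0e, Atp6v1f, Cln3, Gusb and Neu1 were above 1 by the means but below it in at least 1 library.

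**Figure D3:**
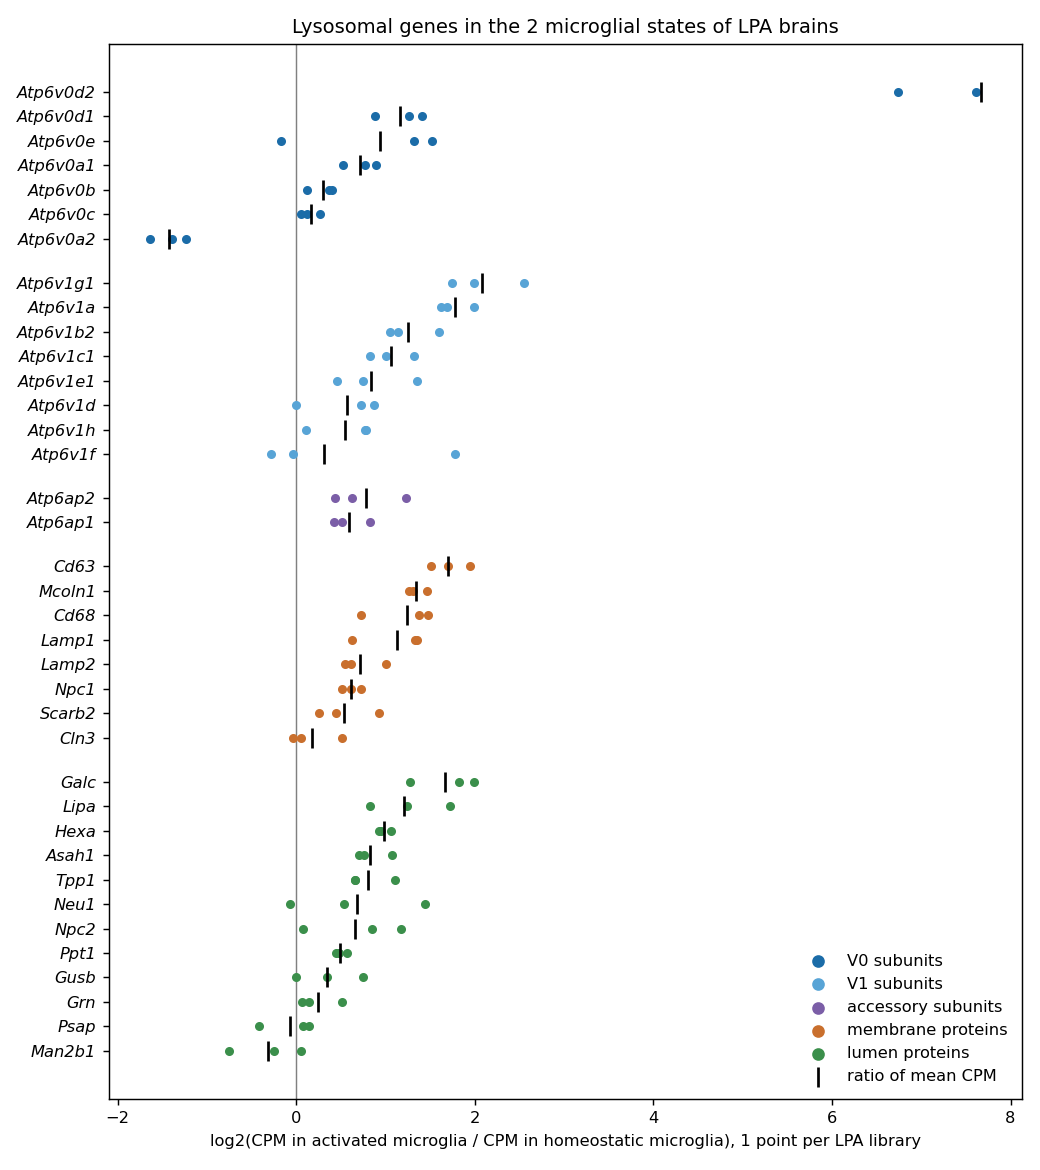
Ratio of CPM in activated over homeostatic microglia on a log2 axis for the 37 genes, 1 point per LPA library and a bar mark for the ratio of means. Atp6v0d2 has no point for LPA 3, where homeostatic microglia had 0 UMIs. Of the genes, 29 have all their points above 0, with Atp6v1d almost at 0 in LPA 1, and Atp6v0a2 has all of them below.

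The activated nuclei fell into a cluster led by Gpnmb (94, 147 and 152 nuclei in the LPA libraries) and a cluster led by Ccl3 (69, 83 and 95 nuclei). By mean marker level relative to the highest cluster, the Ccl3-led cluster scored 0.508 for activated and 0.474 for homeostatic markers. The Gpnmb-led cluster scored 0.761 and 0.231. With clusters at Leiden resolution 2, a cluster with Cd83 among its leading genes was named homeostatic (0.639 against 0.288 for activated). It held 70, 94 and 99 nuclei of the LPA libraries. State ratios at that resolution are not given. Atp6v0d2 was at 356, 491 and 349.8 CPM in the Gpnmb-led and 123, 145 and 85.2 CPM in the Ccl3-led nuclei. At least 1 of its UMIs was in 28.7%, 32.7% and 27.0% of the Gpnmb-led nuclei and in 10.1%, 9.64% and 5.26% of the Ccl3-led nuclei. In astrocytes of the same libraries, which should lack this subunit, the share was 0.117%, 0.0969% and 0.315% at a higher depth (median UMIs 3425.5, 3256 and 3373, against 2307.5, 2206 and 2102.5 in the Gpnmb-led cluster). Lipa, the acid lipase, and Galc were 1.92 and 1.89 times as high in the Gpnmb-led as in the Ccl3-led cluster, whereas Cd68 (0.945) and Atp6v1c1 (0.851) were not higher. In all, 16 of the 37 genes were higher in the Gpnmb-led cluster in every LPA library, against 16.5% of 9130 genes with at least 20 UMIs in the 2 clusters.

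Of the 671 Atp6v0d2 UMIs in LPA libraries, 420 (62.6%) were in activated microglia, 3 in other immune nuclei, 63 in the other named classes and 185 (27.6%) in unnamed nuclei. The vehicle libraries held 61 in all. Of these, 16 were in the nucleus described above, 31 in the other named classes and 14 in unnamed nuclei.

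**Figure D4:**
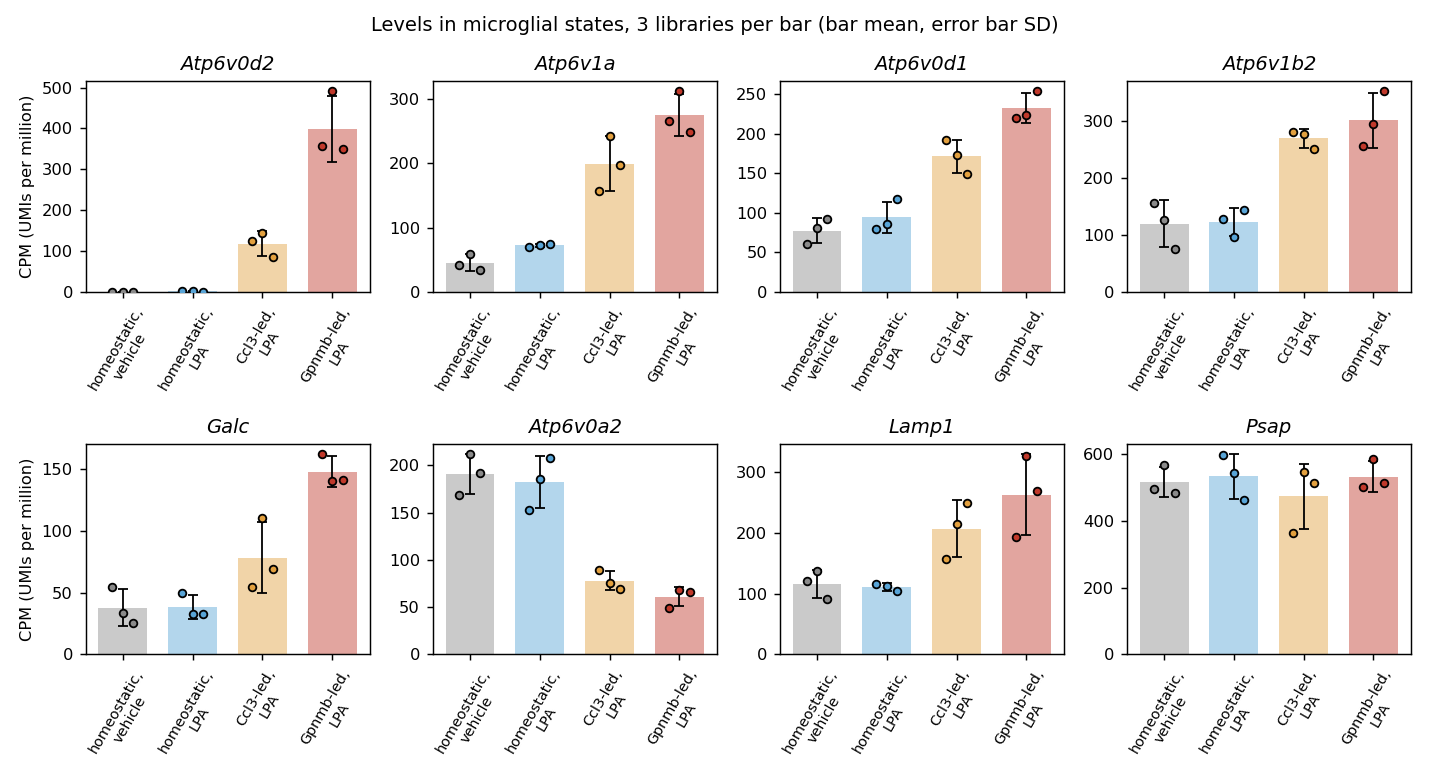
CPM of 8 genes in homeostatic microglia of vehicle and LPA libraries and in Ccl3-led and Gpnmb-led activated microglia of LPA libraries, as bars for the mean of 3 libraries, error bars for the SD and a point per library. Atp6v0d2 is near 0 in both homeostatic groups, and Atp6v0a2 is highest there.

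Homeostatic microglia were then tested on their own, LPA against vehicle, to separate a change within the state from a change in the share of activated nuclei. None of the 33 genes tested was called by edgeR or DESeq2, and 0.342% of all genes were called by edgeR. At an unadjusted p under 0.05 there were 2, against 7.24% of all genes. Atp6v0d2, Atp6v1f, Atp6v1g1 and Mcoln1 were too low to test. The median log2 fold change was -0.03, and 10 of the 33 were above 0. Atp6v1b2 (-0.08 ± 0.22, SE), Galc (0.02 ± 0.37), Lamp1 (-0.18 ± 0.22), Grn (-0.01 ± 0.14), Psap (0.01 ± 0.14) and Npc2 (-0.05 ± 0.26) had small fitted changes, with standard errors as given.

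Atp6v1a was at 69.1, 72.7 and 74.7 CPM in LPA and 42.2, 59.3 and 33.4 CPM in vehicle homeostatic microglia (log2 fold change 0.49 ± 0.30, edgeR adjusted p = 0.769). The groups did not overlap, but the vehicle values rest on 7, 28 and 4 UMIs. The lowest p was that of Atp6ap2, the prorenin receptor, a pump accessory encoded on the X chromosome, at 54.3, 47.8 and 58.5 CPM against 108, 82.5 and 100.1 CPM (-0.82 ± 0.28, edgeR adjusted p = 0.276). In this state Cd68 was at 44.4, 44.0 and 48.7 CPM in LPA and 72.3, 59.3 and 41.7 CPM in vehicle libraries, overlapping. Lamp1 was at 116, 113 and 104 CPM against 120.4, 138 and 91.8 CPM, overlapping as well. Grn (284 to 389 CPM), Psap (461 to 595 CPM) and Npc2 (67.0 to 114 CPM) also overlapped between the groups.

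Macrophages were few, with 31, 36 and 25 nuclei in LPA and 21, 63 and 25 in vehicle libraries. Only 14 of the 37 genes could be tested, and none was called by edgeR or DESeq2 (0.231% of all genes called). None had an unadjusted p under 0.05, against 6.17% of all genes. Psap was at 136, 299 and 236 CPM in LPA and 367, 351 and 262 CPM in vehicle macrophages (log2 fold change -0.64 ± 0.31, edgeR adjusted p = 0.76). Lamp1 was at 182, 127 and 72.7 CPM against 193, 149 and 190.5 CPM, and Grn at 182, 253 and 236 CPM against 155, 272 and 381 CPM, both overlapping. Cd68 (11.4, 46.0 and 36.4 CPM against 57.99, 61.4 and 71.4 CPM) and Npc2 (193, 104 and 127 CPM against 57.99, 79.0 and 23.8 CPM) rest on 1 to 17 UMIs per library and were not tested. Atp6v0d2 had 1 UMI in the macrophages of all 6 libraries together.

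Whether the effect of LPA differed between immune cells and the rest of the brain was tested directly, as the effect in immune cells minus the mean effect in astrocytes, oligodendrocyte lineage, vascular cells, ependymal class and neurons. All 37 genes were tested and 11 differed, all with the higher effect in immune cells, against 3.54% of 17181 genes called and 2.5% in that direction. At an unadjusted p under 0.05 there were 22, against 13.1% of all genes. Of the 11, 7 were pump subunits. The differences of log2 effects were 0.93 for Atp6v0d1 (edgeR adjusted p = 6.31e-05), 1.18 for Atp6v1a (0.000101), 0.77 for Atp6v1b2 (0.000305) and 0.46 for Atp6v0b (0.00146), a proton-carrying ring subunit. Atp6v0d1, Atp6v1a and Atp6v1b2 kept the call without each library in turn. Atp6v0b lost it without vehicle 1 (edgeR adjusted p = 0.0708).

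Npc2 (0.80, edgeR adjusted p = 0.00629), Atp6v1c1 (0.73, adjusted p = 0.00668), Lamp1 (0.61, adjusted p = 0.00859) and Atp6v1h (0.57, adjusted p = 0.00997), a regulatory V1 subunit, came next. Each lost its call without at least 1 library. This happened without vehicle 1 for Npc2 (edgeR adjusted p = 0.0648), Lamp1 (0.069) and Atp6v1h (0.096), and without vehicle 3 for Npc2 (0.0504), Lamp1 (0.056) and Atp6v1h (0.0865). Without LPA 2 it was lost for Lamp1 (0.0623) and Atp6v1h (0.0798), and for Atp6v1c1 without LPA 3 (0.0824) and vehicle 2 (0.142). Cd63 (0.91), Hexa (0.54) and Atp6v1e1 (0.62) were also called and are taken up in the closing section.

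The values behind the contrast are log2 ratios of LPA over vehicle in each class. For Atp6v1a the ratio was 1.26 in immune cells and between -0.09 and 0.17 in the other 5 classes. Npc2 had 0.59 in immune cells and -0.41 to 0.01 in the others, and Lamp1 had 0.44 and -0.30 to 0.05. For these genes the effect in the other classes was near or below 0. Atp6v0b had 0.15 in immune cells and -0.35 to -0.18 elsewhere. Atp6v0d2, absent from most other nuclei, could not be fitted usefully here (0.97 ± 7.99, SE).

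In immune cells themselves Atp6v0b was at 455, 487 and 509 CPM in LPA and 416, 475 and 419 CPM in vehicle libraries, with overlap between the groups. Npc2 was at 123, 109 and 103 CPM against 68.6, 91.0 and 62.9 CPM, and Lamp1 at 147, 193 and 193 CPM against 142, 141 and 110.1 CPM, both without overlap. Atp6v1c1 was at 108, 123 and 146 CPM against 94.4, 76.1 and 89.1 CPM, and Atp6v1h at 149, 163 and 153 CPM against 98.7, 122 and 105 CPM. Neither overlapped. None of these 5 genes was called in the immune class alone.

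In astrocytes most of the called genes fell. Of 36 genes tested, 1 rose and 5 fell, with 8.3% of all 14568 genes called, 5.1% higher and 3.2% lower in LPA. The log2 fold change was above 0 for 15 of the 36, against 48.0% of all genes, and its median was -0.02 against -0.01 over all genes. At an unadjusted p under 0.05 there were 11, against 21.3% of all genes, and DESeq2 called 4. The genes that fell were 3 pump subunits, Atp6v1g1, Atp6v0e and Atp6v0c, and the membrane proteins Cd63 and Lamp1. No lumen protein was called.

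Atp6v1g1 was at 15.4, 14.0 and 15.5 CPM in LPA and 23.4, 21.6 and 21.6 CPM in vehicle astrocytes (log2 fold change -0.55 ± 0.12, edgeR adjusted p = 0.00762). Cd63 was at 111, 111 and 121 CPM against 175, 148 and 129 CPM (-0.38 ± 0.09, edgeR adjusted p = 0.0102), and Atp6v0e at 75.04, 68.9 and 87.2 CPM against 104, 98.6 and 99.1 CPM (-0.37 ± 0.09, edgeR adjusted p = 0.0114). Every vehicle library was above every LPA library for all 3. Atp6v0c, the main proteolipid of the rotor ring, was at 59.97, 58.4 and 56.8 CPM against 83.4, 80.0 and 63.5 CPM (-0.35 ± 0.09, edgeR adjusted p = 0.0225). Lamp1 was at 96.3, 93.8 and 105 CPM against 137, 112 and 113 CPM (-0.27 ± 0.08, edgeR adjusted p = 0.0435). These 2 genes did not overlap either.

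Some of these calls were lost with a library left out. Without LPA 2 the call was lost for Cd63 (edgeR adjusted p = 0.0622), Atp6v0e (0.074), Atp6v0c (0.0772) and Lamp1 (0.183). Atp6v0c also lost it without LPA 3 (0.0756), vehicle 1 (0.0664) and vehicle 2 (0.112), and Lamp1 without LPA 1 (0.117), vehicle 1 (0.141) and vehicle 3 (0.0564). With a term for sex (0.0951) or clusters at Leiden resolution 2 (0.0757) Lamp1 was not called by edgeR. DESeq2 did not call Atp6v1g1 (adjusted p = 0.0536) or Lamp1 (0.089).

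Cd68 was the gene that rose in astrocytes, with 24, 29 and 21 UMIs in LPA and 6, 7 and 6 UMIs in vehicle libraries. This is 3.89, 4.10 and 3.77 CPM against 1.73, 1.15 and 1.24 CPM, without overlap (log2 fold change 1.57 ± 0.32, edgeR adjusted p = 0.00371). Its level in LPA astrocytes was 3.64% of that in activated microglia, and oligodendrocyte precursors (3.42%), committed oligodendrocytes (4.92%) and mature oligodendrocytes (4.32%) had like shares. In mature oligodendrocytes Cd68 was at 3.22 to 5.91 CPM in LPA and 3.66 to 4.09 CPM in vehicle libraries, overlapping.

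Some microglial genes were also higher in astrocytes of LPA brains. Only 6 of the listed markers of activated microglia were summed. Their level was 13.8 to 21.9 CPM in LPA and 5.76 to 7.22 CPM in vehicle astrocytes. Of these markers, 2 of the 4 tested were called higher (Gpnmb, log2 fold change 2.97, and Spp1, 1.40). The 10 immune markers summed to 41.5 to 55.3 CPM against 27.4 to 51.3 CPM, and 1 of the 9 tested, Dock2 (1.46), was higher. Csf1r, P2ry12, Cx3cr1 and C1qa were not called. Apoe, which is among the markers of activated microglia left out of the 6, was lower in LPA astrocytes (-0.56, edgeR adjusted p = 8.24e-05). Of 14 oligodendrocyte markers, 5 were lower in LPA astrocytes. The part of such transcripts in the astrocyte results was not tested.

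Astrocytes comprised 3 clusters, led by Grin2c, by A330076C08Rik and by Myoc, the last with Gfap among its leading genes, and the last was larger in LPA brains (403, 496 and 419 nuclei against 117, 231 and 189). Each cluster was therefore tested alone, a choice made after seeing the data. Cd63, Atp6v0e and Cd68 were called in Grin2c-led astrocytes (-0.56, -0.41 and 2.20, background 2.78%). None was called by edgeR in A330076C08Rik-led astrocytes (0.369% of all genes called, DESeq2 not run). There, 4 of the 35 tested were at an unadjusted p under 0.05, against 10.1% of all genes. Psap alone was called in the Myoc-led cluster, at 351, 356 and 338 CPM against 629, 516 and 456 CPM (-0.51, background 9.02%). With the Gfap-led cluster left out, Cd63 and Cd68 were called (background 2.3%).

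**Figure D5:**
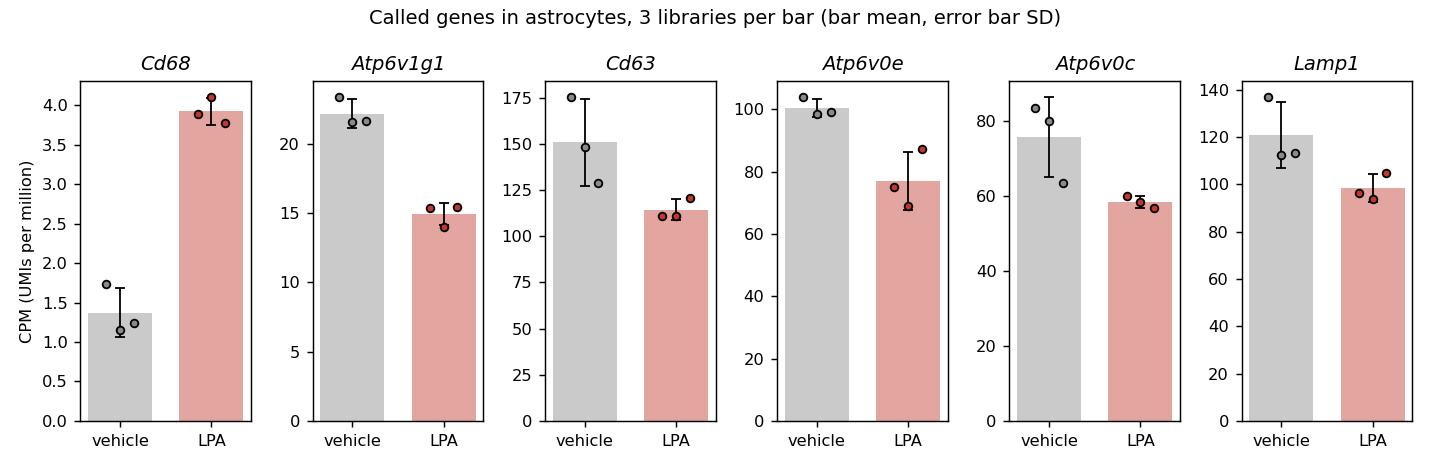
CPM of the 6 called genes in astrocytes, with bars for the mean of 3 libraries, error bars for the SD and a point per library. Cd68 is higher in LPA and the other 5 genes are lower. The groups do not overlap for any of them, which adds no support, since these same libraries selected the genes.

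In the other 9 cell types tested no gene of the list was called by edgeR or by DESeq2. The number tested, the number at an unadjusted p under 0.05 and the share of all genes called were 35, 2 and 0.168% in oligodendrocyte precursors, 36, 3 and 2.69% in committed oligodendrocytes, and 36, 4 and 0.482% in mature oligodendrocytes. They were 34, 2 and 1.88% in meningeal cells, 30, 3 and 0.263% in pericytes, and 33, 1 and 0.0947% in endothelial cells. In ependymal cells they were 34, 2 and 3.91%, in choroid plexus cells 34, 2 and 0.0398%, and in neurons 36, 2 and 0.0889%. The share of all genes at an unadjusted p under 0.05 was 7.66% in oligodendrocyte precursors, 13.4% in committed and 10.6% in mature oligodendrocytes. That share was 12.03% in meningeal cells, 7.66% in pericytes and 7.11% in endothelial cells. It was 16.4% in ependymal cells, 6.18% in choroid plexus cells and 7.08% in neurons.

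The lowest p values in these types were those of Npc2 in committed oligodendrocytes and Scarb2, the receptor that carries glucocerebrosidase to lysosomes, in meningeal cells. Npc2 was at 25.5, 23.6 and 26.8 CPM in LPA and 41.8, 35.7 and 30.2 CPM in vehicle libraries, without overlap (log2 fold change -0.54 ± 0.16, edgeR adjusted p = 0.0874). Scarb2 had a log2 fold change of 0.60 ± 0.18 (edgeR adjusted p = 0.0911). Neither passed the threshold.

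Other genes of the pathway were looked at as a second list of 15 pump subunits and assembly factors and 36 lysosomal enzymes and transporters. In immune cells 2 of the 7 tested genes of the first kind rose and 1 fell (3.95% of all genes called higher, 6.14% in either direction). Those that rose were the pump regulators Dmxl1 (log2 fold change 0.48) and Wdr7 (0.71), and the gene that fell was Rogdi (-0.82), a partner of both. Among the 33 tested genes of the second kind, the chloride-proton exchanger Clcn7 (1.34), the sialic acid exporter Slc17a5 (0.79) and the sulfatase Galns (1.08) were among those that rose, and Hgsnat (-1.05), an acetyltransferase of heparan sulfate breakdown, fell. In astrocytes Scpep1 rose (0.48), and Fuca1 (-0.31) and Laptm4a (-0.34) fell, of 36 tested genes of the second kind (8.3% of all genes called). Between microglial states, 4 of 10 and 22 of 36 of these genes were higher in activated microglia in every LPA library (background 21.8%). Lower in every library were 1 of 10 and 4 of 36 (background 22.2%).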

How the data were processed

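Raw UMI counts were deposited, made by the authors with Cell Ranger 4.0.0 on an mm10 pre-mRNA reference, as filtered matrices without normalization. Intronic reads are counted, so levels reflect nuclear pre-mRNA. Groups were taken from the sample labels, 3 replicates each, and each replicate was taken as 1 mouse. The 37 genes and all other lists were chosen with earlier results of these data known. Nuclei below 300 genes, over 1% mitochondrial UMIs or over an upper limit of UMIs (1.5 interquartile ranges) were removed and the others clustered with scanpy 1.11.5 and leidenalg 0.10.2 (Python 3.11.15; 3000 variable genes, 40 components, 30 neighbors, resolution 1), leaving the listed genes out, and named by markers. The limits of the naming were set with the clusters seen. Doublets called by Scrublet were kept, except in an alternative.

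UMIs were summed per library and type and tested with edgeR 4.0.16 (R 4.3.3; quasi-likelihood, TMM, filterByExpr, Benjamini-Hochberg adjustment over all genes), with DESeq2 1.42.0 as an alternative. The study's own test of single nuclei was replaced, since nuclei of a mouse are not replicates. On simulated data, 58.5% of genes changed by 1 on the log2 scale were recovered in immune cells (9672 genes), 59.5% in homeostatic microglia (6722), 31% in macrophages (1734) and 88% in astrocytes (14568). Genes given library by library were Atp6v0d2, Cd68, Lamp1, Grn, Psap and Npc2 in the immune types, up to 5 called genes per type, up to 8 of the contrast between classes, and the 8 largest and 3 smallest state ratios with at least 20 UMIs. Other genes named with values, such as Atp6ap2 and Scarb2, were chosen after seeing them. The alternatives were other filters, scalings, clusterings and doublet handling, a sex term, a replicate block and each library left out. Intervals and floors cover counting error only. A result of the second list of pathway genes is not reported here.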

Additional observations from a re-analysis of the deposited data

Results flagged for a closer look

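The effect of LPA differed between immune cells and the mean of the other 5 classes for 11 of the 37 genes, by edgeR's test of the difference itself. In log2 units the differences were 0.93 for Atp6v0d1, 1.18 for Atp6v1a, 0.77 for Atp6v1b2, 0.46 for Atp6v0b, 0.80 for Npc2, 0.73 for Atp6v1c1, 0.61 for Lamp1 and 0.57 for Atp6v1h.

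The other 3 were Cd63, Hexa and Atp6v1e1. Cd63 differed by 0.91 (edgeR adjusted p = 0.0104), with a log2 ratio of 0.67 in immune cells and -0.45 to 0.14 in the other classes. It lost the call without LPA 3 (edgeR adjusted p = 0.127), vehicle 1 (0.059) and vehicle 2 (0.0871), and also without the mitochondrial filter (0.085). Hexa differed by 0.54 (edgeR adjusted p = 0.0304) and lost the call without LPA 2 (0.113), LPA 3 (0.137), vehicle 1 (0.161) and vehicle 3 (0.12), and also without Scrublet doublets (0.0586). Atp6v1e1 differed by 0.62 (edgeR adjusted p = 0.0482) and kept the call under 4 of 12 alternatives, all with the same sign.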

How the results depend on the processing

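Counts of called genes changed with these settings. In immune cells the count of 5 became 8 without the filter on low counts, 3 with DESeq2, 11 with microglia only, and 2 to 6 with a library left out. In astrocytes 6 became 3 to 6 with a library left out, 3 in the Grin2c-led, 0 in the A330076C08Rik-led and 1 in the Myoc-led cluster, and 2 outside the Gfap-led cluster. The 11 genes of the contrast between classes became 4 to 14 with a library left out. Committed oligodendrocytes had 1 called gene without the mitochondrial filter (Npc2) and mature oligodendrocytes 0 to 1 with a library left out (Scarb2, without LPA 1). The count of 29 genes higher in activated microglia in every library was 29 to 34 with a library left out. The cause of these changes was not tested. None of the called values followed through these alternatives changed sign.

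The labels do not say whether replicate numbers pair the samples, and the main fits did not treat them as pairs. Deviations of same-numbered libraries correlated at 0.107, 0.244 and -0.03 for numbers 1 to 3, and with a replicate block 4 genes were called in immune cells, 5 in astrocytes and 0 in every other type. Under the block Galc in immune cells (adjusted p = 0.0624) and Lamp1 in astrocytes (0.0626) were not called.

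The vehicle libraries had 166067, 472546 and 119828 UMIs in homeostatic microglia and 51737, 113965 and 41995 in macrophages, and the self-test recovered 31% of the changed genes in macrophages. With 4 activated nuclei in vehicle brains, an effect of LPA within that state could not be tested.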
